A study of Mus musculus with 6 samples.

Results

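miR-128-3p was followed as a single row, 1 of the 1906 mature miRNAs counted in each library, through 3 libraries of extracellular vesicles (EVs) and 3 libraries of the mouse primary oligodendrocytes that were cultured to release them. The row was chosen by name, with its level, rank and replicate spread in these libraries already known, so those values and every EV-to-cell difference of miR-128-3p are given as a description without a test. EVs were a 100000 g pellet of serum-free Sato medium with B27, conditioned for 24 h on C57BL/6N oligodendrocytes at 5 to 6 days in vitro. Cells were whole C57BL/6N oligodendrocytes at 6 days in vitro. All cultures came from embryonic day 14 mice and had been grown with 1% horse serum before they were washed. Such a pellet can also hold particles other than vesicles, and a library of medium without cells was not analysed here, so vesicle RNA and RNA brought by the medium cannot be told apart. Whether the replicates of a group came from separate cultures is not in the labels.

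miR-128-3p is a brain-enriched miRNA, best known from neurons, where it restrains the expression of ion channel and signalling genes and so limits excitability. Loss of miR-128 in mouse neurons leads to hyperactivity and seizures. Like other miRNAs it is cut from a hairpin precursor, and the retained strand guides Argonaute proteins to target messages through its seed, bases 2 to 8 from the 5′ end. The opposite strand is mostly degraded.

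The mature sequence is shown with its seed in capitals, followed by the other mature miRNAs whose 5′ part holds the same 7 letters, written in capitals where they occur. These sequences, from RefSeq on the build GRCm38.p6, show why miR-27 is described beside miR-128.
miR-128-3p: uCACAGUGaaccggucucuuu
miR-27a-3p: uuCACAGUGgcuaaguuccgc
miR-27b-3p: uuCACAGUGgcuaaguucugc

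Among 1679 mature miRNA names in the RefSeq table, 10 (0.596%) held CACAGUG anywhere on the mature strand, the only strand searched. miR-128-3p was the 1 name that held it at bases 2 to 8. In miR-27a-3p and miR-27b-3p it lay at bases 3 to 9, 1 base further from the 5′ end, and in miR-216a-3p at bases 1 to 7. miR-216a-3p had 0 reads in EVs and 0 in cells. The other 6 names held the letters further in and had at most 29 reads over the 3 EV libraries and at most 4 over the 3 cell libraries. Among the names searched, nearly all reads with these letters near the 5′ end were those of miR-128-3p and of the miR-27 pair. The search did not reach 284 of the 1906 counted names, which had no sequence in the table.

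Mouse miR-128-3p is made from 2 genes, and the hairpins are shown because the capitals, which mark miR-128-3p, are the same in both.
Mir128-1: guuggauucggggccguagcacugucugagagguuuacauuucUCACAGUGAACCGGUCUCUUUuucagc
Mir128-2: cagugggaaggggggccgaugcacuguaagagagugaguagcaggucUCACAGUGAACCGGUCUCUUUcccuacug

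In the annotation used here (GRCm38), Mir128-1 lies at chr1:128202361-128202430 on the plus strand within R3hdm1. Mir128-2 lies at chr9:112118636-112118711 on the minus strand within Arpp21. Each sits on the strand of its host gene and overlaps 0 annotated exons of it, that is, in an intron. The longest run of bases shared by the hairpins is 23, which is the 21 bases of miR-128-3p and 2 bases before them. Reads of miR-128-3p can therefore not be assigned to a gene, while reads of the opposite arms can.

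The opposite arms, whose whole sequences tell the genes apart, are shown with bases 2 to 8 in capitals. The capitals are the same in both arms, which differ at the first base and after base 8.
miR-128-1-5p: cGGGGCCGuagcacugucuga
miR-128-2-5p: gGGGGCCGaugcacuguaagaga

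Total counts were 313766 to 689475 in the EV libraries and 126910 to 202358 in the cell libraries. One read of miR-128-3p was worth 1.45 to 3.19 CPM, the usual read count scaled to a common library total, in EVs and 4.94 to 7.88 CPM in cells. Levels of different miRNAs are compared as CPM without a length term, since a read spans the whole of a mature miRNA. Each of the 5 listed miRNAs of oligodendrocytes had reads in every library. So did each tested neuronal miRNA and each myeloid miRNA of the lists below, so such reads cannot check the labelled cell type. The summed level of the 5 was 33557 to 36111 CPM in EVs, against 33961 to 43435 CPM in cells. The neuronal list, without miR-128-3p, had a larger sum in the cell libraries, at 224805 to 249263 CPM. Of that sum miR-9-5p alone held 165973 to 192907 CPM. The cell type of the cultures was therefore not tested.

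miR-128-3p held a larger part of the reads in each EV library than in each cell library. It had 33923, 28270 and 46683 reads in EVs replicates 1, 2 and 3, against 6862, 2807 and 5675 reads in Cells replicates 1, 2 and 3. As levels these were 78707, 90099 and 67708 CPM in EVs, against 43934, 22118 and 28044 CPM in cells. EVs replicate 2 was the highest library of all and Cells replicate 2 the lowest, and the groups did not overlap on this scale.

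The mean was 78838 ± 11196 CPM in EVs and 31365 ± 11281 CPM in cells (SD, n = 3 each), a ratio of means of 2.51. The lowest EV library stood 1.54 times as high as the highest cell library. As shares of all miRNA reads, miR-128-3p made up 6.77% to 9.01% of EV libraries and 2.21% to 4.39% of cell libraries. The widest 95% exact binomial interval, 4.29% to 4.50% in Cells replicate 1, shows that counting error was small beside the differences between libraries. Reads amplified by PCR are not independent molecules, so these intervals cover counting error only. In bulk samples such as these, a change in the number of cells of a type and a change in miRNA per cell cannot be told apart.

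The size of this difference depended on the scaling. Trimmed mean of M-values (TMM) scaling, which balances the bulk of miRNAs between libraries, gave factors of 1.085 to 1.243 in EVs and 0.76 to 0.904 in cells. On that scale miR-128-3p stood at 65657, 83351 and 54725 CPM in EVs replicates 1, 2 and 3, against 58016, 24568 and 31416 CPM in Cells replicates 1, 2 and 3. The groups then overlapped, because Cells replicate 1 lay above EVs replicate 3. The fitted log2 fold change, EVs over cells, was 0.84 (SE 0.30) with TMM and 1.33 with library size only. The median of all 336 tested miRNAs was 0.06 and 0.54 on the same scales. Without Cells replicate 1, the TMM value was 1.26.

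**Figure D1:**
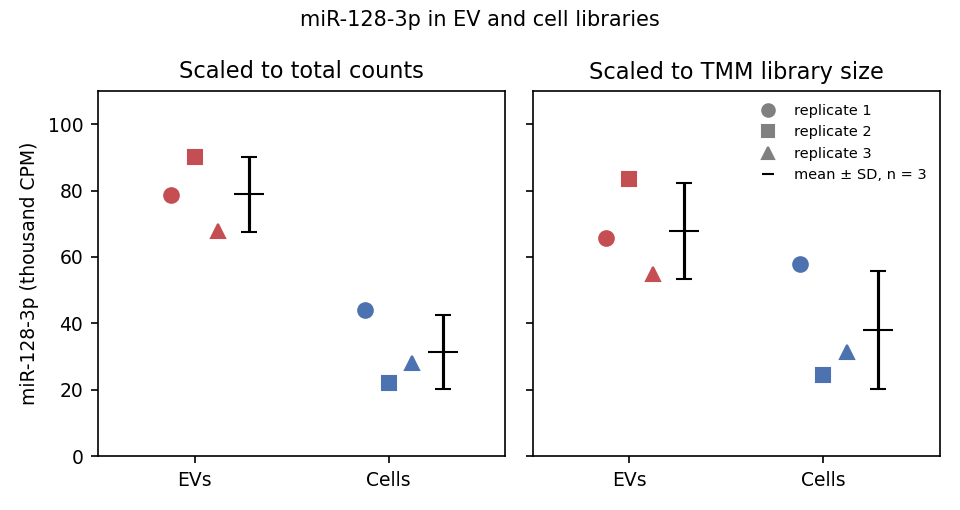
Level of miR-128-3p in units of 1000 CPM in each EV library (left, red) and each cell library (right, blue), scaled to total counts in the left panel and to TMM library size in the right panel; marker shapes give the replicate number and the black bar is the mean ± SD of 3 libraries. All EV libraries lie above all cell libraries by total counts, whereas with TMM Cells replicate 1 (58016 CPM) lies above EVs replicate 3 (54725 CPM).

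Set against the other miRNAs, the TMM fold change of miR-128-3p was a moderate value on a very abundant miRNA. Of the 336 tested miRNAs 85 had a higher log2 fold change. Of the 20 most abundant miRNAs over the 6 libraries 3 did, which were miR-30e-5p, miR-101a-3p and miR-124-3p, the first pair named after their values were seen. Counted as a gain in mean CPM, EVs minus cells, miR-128-3p came first of all miRNAs at 47473 CPM, with miR-101a-3p next at 17057 CPM. A full gap between EV and cell libraries, as miR-128-3p had by total-count CPM, was common. By total-count CPM, every EV library exceeded every cell library for 159 of the 336 tested miRNAs (47.3%), and every EV library lay below every cell library for 68 (20.2%). By the TMM fit 193 of the 336 (57.4%) were called in either direction, 96 higher and 97 lower, and with library size only the split was 148 higher and 60 lower.

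Libraries with the same replicate number did not move together for this miRNA. The EV level was 1.79 times the cell level for replicate 1, 4.07 times for replicate 2 and 2.41 times for replicate 3. Replicate 2 held both the highest EV value and the lowest cell value.

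In EVs miR-128-3p was second in each library, behind miR-9-5p, a miRNA of neural progenitors and neurons. The means were 78838 ± 11196 CPM for miR-128-3p and 101575 ± 20711 CPM for miR-9-5p, and their ranges overlapped (67708 to 90099 CPM and 88533 to 125457 CPM). Within each EV library, however, miR-128-3p was the lower of the pair, with 0.867, 0.718 and 0.765 reads per read of miR-9-5p in EVs replicates 1, 2 and 3. Below it came miR-181a-5p (36517 to 41861 CPM), miR-9-3p (33971 to 37480 CPM) and miR-30a-5p (26475 to 34111 CPM). No range of these 3 reached that of miR-128-3p, which had 1.62 to 2.37 times the reads of the next miRNA in its library.

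In cells the place of miR-128-3p was less fixed. It held rank 4 in Cells replicate 1, at 43934 CPM, rank 9 in Cells replicate 3 and rank 12 in Cells replicate 2, at 22118 CPM. By mean level it was at rank 9, below miR-21a-5p (24474 to 42109 CPM), miR-26a-5p (30879 to 39611 CPM) and miR-181b-5p (33120 to 34271 CPM), which are broadly expressed or neural miRNAs. It stood above miR-9-3p (18740 to 32157 CPM), let-7i-5p (22678 to 26373 CPM) and miR-219a-2-3p (20061 to 29484 CPM), the last a miRNA of differentiating oligodendrocytes. The range of miR-128-3p, 22118 to 43934 CPM, overlapped the range of each of these 6, so its order among them was not resolved. Its reads per read of miR-9-5p were 0.228, 0.123 and 0.169 in Cells replicates 1, 2 and 3, all below the lowest EV library.

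**Figure D2:**
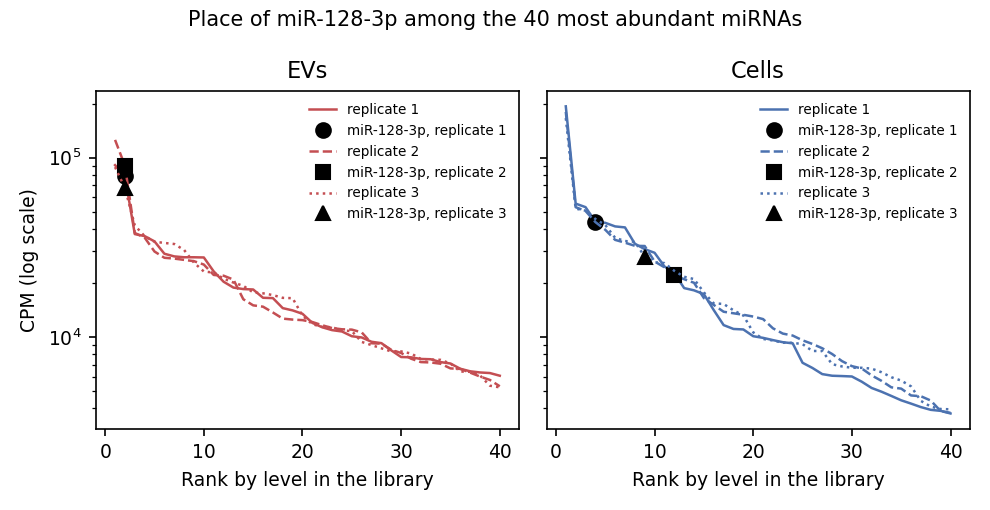
CPM (log axis) of the 40 most abundant miRNAs by rank in each EV library (left panel) and each cell library (right panel), with 1 line per replicate and black markers for miR-128-3p. The markers share rank 2 in EVs and fall at ranks 4, 12 and 9 in Cells replicates 1, 2 and 3.

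By total-count CPM the replicates of miR-128-3p had like SDs in both groups, 11196 CPM in EVs and 11281 CPM in cells. Relative to the mean they thus spread more in cells. Its coefficient of variation, the SD as a percentage of the mean, was 14.2% in EVs and 36.0% in cells. Among miRNAs that averaged 1000 CPM or more, the median was 14.7% of 106 miRNAs in EVs and 15.6% of 88 miRNAs in cells. In EVs 58 of these miRNAs varied more than miR-128-3p, and in cells 13 did. Of the 20 most abundant miRNAs in cells, 1, miR-125b-5p, named after its value was seen, varied more than miR-128-3p, at 46.0%, and the median of the 20 was 8.82%. Counting alone would give coefficients of 0.463% to 0.595% in EV libraries and 1.21% to 1.89% in cell libraries. The spread in cells rested on Cells replicate 1, without which it was 16.7%.

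**Figure D3:**
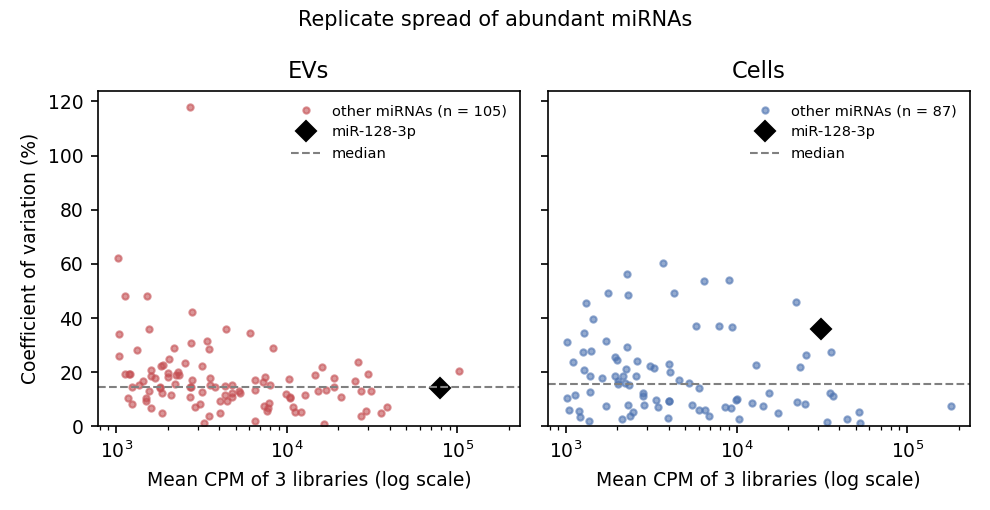
Coefficient of variation over 3 libraries against mean CPM (log axis) for miRNAs that averaged 1000 CPM or more, in EVs (left) and cells (right), with miR-128-3p as a black diamond and the median as a dashed line. miR-128-3p lies at 14.2% in EVs, near the median of 14.7%, and at 36.0% in cells, above the median of 15.6%.

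Almost all reads of the miR-128 hairpins were of the 3p arm in both groups. Of all miR-128 reads, 108876 of 108896 in EVs and 15344 of 15350 in cells were miR-128-3p. These are shares of 99.982% (95% exact binomial interval 99.972% to 99.989%) and 99.961% (99.915% to 99.986%). Among 104 hairpins with a 5p and a 3p name and at least 1000 reads over the 6 libraries, the median share of the more abundant arm was 98.1%, and 3 had a higher share than miR-128 over the same libraries (99.979%).

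The opposite arms, which are independent of the choice of miR-128-3p, had too few reads to compare the groups. miR-128-1-5p had 1, 0 and 5 reads in EVs replicates 1, 2 and 3, against 1, 1 and 2 reads in Cells replicates 1, 2 and 3. miR-128-2-5p had 5, 2 and 7 reads in EVs, against 0, 0 and 2 reads in cells, in the same order. Over the group, miR-128-2-5p made up 14 of 20 opposite-arm reads in EVs (70.0%, 95% exact binomial interval 45.7% to 88.1%) and 2 of 6 in cells (33.3%, 4.33% to 77.7%). Reads of the opposite arms of both genes were thus present in EVs and in cells, and a different balance between these arms was not detectable at this depth. How far that balance follows the output of the genes was not tested. Neither arm passed the filter on low counts. Without that filter, their log2 fold changes were -1.28 (SE 1.09) for miR-128-1-5p and 0.86 (SE 1.09) for miR-128-2-5p, with edgeR BH-adjusted p-values of 0.497 and 0.684.

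miR-27b-3p was lower in EVs by the TMM fit, while the mean level of miR-128-3p was higher there. miR-27b-3p, a miRNA of vascular, fat and muscle cells among others, stood at 5144, 3936 and 5245 CPM in EVs replicates 1, 2 and 3, against 6089, 5161 and 6859 CPM in Cells replicates 1, 2 and 3. The ranges overlapped, in that Cells replicate 2 lay below EVs replicate 3. Its log2 fold change was -0.82 (SE 0.19, edgeR quasi-likelihood test, BH-adjusted p = 0.00584), and 97 of the 336 tested miRNAs (28.9%) were called lower. With library size only the value was -0.34 and it was not called (BH-adjusted p = 0.158).

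miR-27a-3p stood at 299, 185 and 402 CPM in EVs and at 429, 221 and 445 CPM in cells, in the order of replicates. Its log2 fold change was -0.80 (SE 0.33, edgeR BH-adjusted p = 0.0613, not called). A fit blocked on replicate number did call it (-0.79, adjusted p = 0.0206), as did fits that left out EVs replicate 3 (-1.07, adjusted p = 0.0329) or Cells replicate 2 (-1.07, adjusted p = 0.0166). miR-27a-3p and miR-27b-3p are near-identical, as their sequences above show, so the split of reads between them is uncertain.

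miR-128-3p had 15.3, 22.9 and 12.9 reads per read of miR-27b-3p in EVs replicates 1, 2 and 3, and 7.22, 4.29 and 4.09 in Cells replicates 1, 2 and 3. Of the reads of these 3 miRNAs together, miR-128-3p held 92.3% to 95.6% in EVs and 79.3% to 87.1% in cells. The groups did not overlap in either measure. These ratios compare miRNAs within a library and carry no scaling factor, but ligation efficiency differs between sequences, so they are not ratios of molecules.

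The neuronal miRNAs did not share a direction. Of the 17 tested members of the list, which leaves out miR-128-3p, 5 were called higher and 6 lower in EVs, against 28.6% of all tested miRNAs higher and 28.9% lower. The median log2 fold change was 0.04, beside 0.06 over all tested miRNAs. The members called higher, named after their values were seen, were miR-124-3p, miR-124-5p, miR-132-3p, miR-212-3p and miR-137-3p, with log2 fold changes of 0.66 to 1.01, a range that includes the 0.84 of miR-128-3p. Those called lower, at -2.08 to -0.81, were miR-9-5p, miR-132-5p, miR-212-5p, miR-218-5p, miR-7a-5p and miR-7b-5p. The 3p and 5p arms of miR-132 and of miR-212 thus went opposite ways. When single libraries were left out, the number called higher fell to 2 without EVs replicate 1 and to 3 without EVs replicate 2 or Cells replicate 3.

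miR-124-3p, the classic neuron-specific miRNA, ran with miR-128-3p between the groups but not among the cell libraries. It stood at 27833, 26915 and 20115 CPM in EVs replicates 1, 2 and 3, against 6063, 13009 and 9286 CPM in Cells replicates 1, 2 and 3. In cells it was thus lowest in replicate 1 and highest in replicate 2, the reverse of miR-128-3p. Its log2 fold change was 0.97 (SE 0.25, edgeR BH-adjusted p = 0.00832), and the call was lost on leaving out EVs replicate 1 (0.85, adjusted p = 0.0636) or on leaving out EVs replicate 2 (0.74, adjusted p = 0.0846).

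miR-128-3p had 2.83 to 3.37 reads per read of miR-124-3p in EVs and 1.7 to 7.25 in cells, so the narrow EV range lay inside the wide cell range. miR-9-3p, the partner strand of miR-9-5p, had the same order among cell libraries as miR-124-3p, at 18740, 32157 and 25835 CPM in Cells replicates 1, 2 and 3. Its log2 fold change was 0.04 (SE 0.17, edgeR BH-adjusted p = 0.879, not called), and with library size only it was called higher (0.48, adjusted p = 0.0419). The neuronal list as a whole had no common order among cell libraries. Of its 17 tested members, 9 were lowest and 6 were highest in Cells replicate 1, where miR-128-3p was highest. miR-218-5p, miR-129-5p, miR-132-5p and miR-212-5p had the order of miR-128-3p itself, all but the first named after their values were seen. miR-132-5p and miR-212-5p had 10 to 82 reads per cell library.

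Of the 4 most abundant neuronal miRNAs, miR-9-5p and miR-218-5p were lower in EVs by the TMM fit. miR-9-5p stood at 90737, 125457 and 88533 CPM in EVs and at 192907, 179686 and 165973 CPM in cells, in the order of replicates (log2 fold change -1.28, SE 0.21, edgeR BH-adjusted p = 0.00087). miR-218-5p, a miRNA of motor and other neurons, stood at 7253, 8494 and 6105 CPM in EVs and 9898, 8660 and 9305 CPM in cells. Its log2 fold change was -0.81 (SE 0.22, edgeR BH-adjusted p = 0.0104), or -0.35 and not called with library size only (adjusted p = 0.108). miR-128-3p had 10.6 to 11.1 reads per read of miR-218-5p in EVs and 2.55 to 4.44 in cells, without overlap.

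miR-132-3p, an activity-regulated neuronal miRNA chosen here after its values were seen, kept a narrow ratio to miR-128-3p in EVs and a wide one in cells. miR-128-3p had 7.82 to 8.15 reads per read of miR-132-3p in EVs and 4.99 to 11.2 in cells. The group means of this ratio were 7.96 ± 0.172 in EVs and 7.93 ± 3.10 in cells (SD, n = 3 each).

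Of the 5 oligodendrocyte miRNAs, 2 were called higher and 3 lower, beside 28.6% and 28.9% of all tested miRNAs. miR-219a-2-3p, which promotes oligodendrocyte differentiation, was lower at 14079, 11222 and 13148 CPM in EVs and 29484, 20061 and 21042 CPM in cells (log2 fold change -1.37, SE 0.23, edgeR BH-adjusted p = 0.000938). Among cell libraries it had the order of miR-128-3p, highest in replicate 1 and lowest in replicate 2, as did miR-338-5p and miR-219a-5p. Of the 5 members, 3 were highest in Cells replicate 1 and 3 were lowest in Cells replicate 2. The others, miR-138-5p and miR-338-3p, were lowest in replicate 1. miR-128-3p had 5.15 to 8.03 reads per read of miR-219a-2-3p in EVs and 1.1 to 1.49 in cells, without overlap. miR-338-5p, from another hairpin of oligodendrocyte differentiation, was lower too, with a log2 fold change of -2.06 (SE of 0.21, edgeR BH-adjusted p = 6.81e-05).

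miR-138-5p, which also acts in oligodendrocyte differentiation, was higher, with 0.73 as its log2 fold change (SE 0.17, BH-adjusted p = 0.00482 in edgeR). miR-219a-5p was higher by 0.81 on that scale (SE 0.26, adjusted p = 0.026 in edgeR), at 7524, 11002 and 6403 CPM in EVs and 3649, 3191 and 3578 CPM in cells. The call was lost in the fit blocked on replicate number (0.75, adjusted p = 0.0535) and on leaving out EVs replicate 2 (0.39), Cells replicate 2 (0.70) or Cells replicate 3 (0.78). Reads of miR-128-3p per read of miR-219a-5p overlapped between the groups, at 8.19 to 10.6 in EVs and 6.93 to 12.0 in cells.

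**Figure D4:**
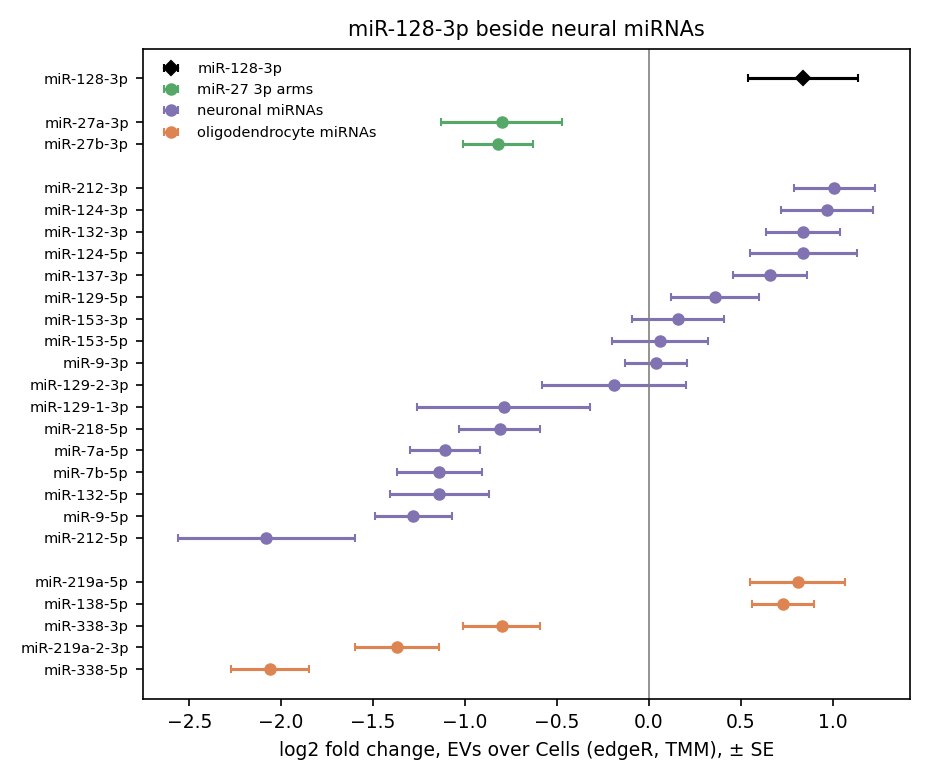
Log2 fold change, EVs over cells, from the edgeR fit with TMM, with its SE, for miR-128-3p (black), the miR-27 3p arms (green), the tested neuronal miRNAs (purple) and the tested oligodendrocyte miRNAs (orange). miR-128-3p, at 0.84, lies among the 5 neuronal members called higher (0.66 to 1.01) and near the 2 oligodendrocyte members called higher (0.73 and 0.81), while 6 neuronal and 3 oligodendrocyte members were called lower.

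miRNAs with the profile closest to miR-128-3p were ranked over the 6 libraries by the root mean square difference of log2 CPM after centring. Of 224 miRNAs with at least 100 CPM in both groups, the closest were miR-181c-3p (difference 0.17), miR-674-3p (0.18), miR-323-3p (0.20), miR-344-3p (0.21) and let-7d-3p (0.23), beside a median of 0.70 over the 224. All 5 were far less abundant than miR-128-3p, and 0 of the 5 have its seed. Since the 6 libraries form 2 groups, a small difference mostly marks a like gap between the groups. These 5 were picked for that likeness, so their EV-to-cell differences are given with no test.

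miR-181c-3p had 343, 414 and 326 CPM in EVs and 160, 118 and 119 CPM in cells, in the order of replicates (fitted log2 fold change 0.98, SE 0.27). miR-674-3p had 610, 631 and 661 CPM in EVs and 301, 189 and 232 CPM in cells (0.91, SE 0.25). Like miR-128-3p, both were highest in Cells replicate 1 among the cell libraries. miR-181c-3p had the full order of miR-128-3p in each group, though Cells replicates 2 and 3 were almost equal (118.2 and 118.6 CPM).

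miR-344-3p followed miR-128-3p within the groups as well, with 6657, 7579 and 5359 CPM in EVs and 3707, 1300 and 1794 CPM in cells. Both were highest in replicate 2 and lowest in replicate 3 of the EVs, and highest in replicate 1 and lowest in replicate 2 of the cells. let-7d-3p had the same order in each group, with 3480, 4516 and 2522 CPM in EVs and 2753, 1080 and 1487 CPM in cells. Their fitted log2 fold changes were 1.02 (SE 0.41) for miR-344-3p and 0.49 (SE 0.40) for let-7d-3p.

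miR-323-3p had 824, 845 and 666 CPM in EVs and 435, 315 and 297 CPM in cells (0.68, SE 0.27), with its lowest value in replicate 3 of each group.

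**Figure D5:**
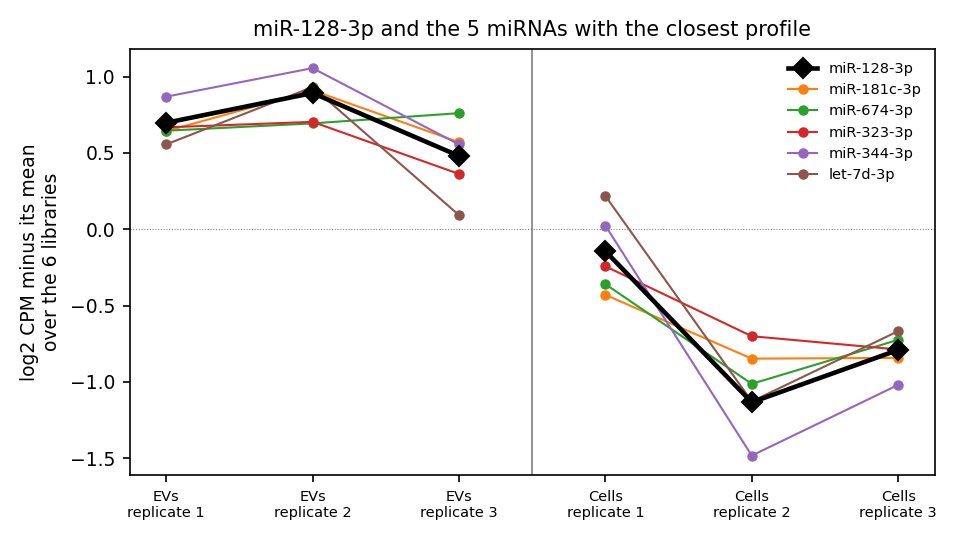
Log2 CPM minus its mean over the 6 libraries for miR-128-3p (black diamonds) and the 5 miRNAs with the smallest root mean square difference from it, in the EV libraries (left of the line) and the cell libraries (right). All 6 profiles are higher in each EV library than in Cells replicates 2 and 3, and Cells replicate 1 is the highest cell library in each.

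miRNAs of other cell types differed between EVs and cells beside miR-128-3p. The blood and liver miRNAs miR-451a, miR-144-3p, miR-486a-5p and miR-122-5p summed to 9663 to 13545 CPM in EVs, against 237 to 301 CPM in cells. All 3 that were tested were called higher, beside 28.6% of all tested miRNAs, with miR-122-5p at 6.84 (SE 0.37, edgeR BH-adjusted p = 2.58e-06) and miR-451a at 6.97 (SE 0.50, edgeR BH-adjusted p = 1.19e-05) on the log2 scale. miR-144-3p had 1 read in the cell libraries. Among EV libraries, miR-122-5p was lowest in EVs replicate 2, where miR-128-3p was highest, while the other 3 were lowest in EVs replicate 3, where miR-128-3p was lowest.

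The 5 myeloid miRNAs summed to 612 to 1936 CPM in EVs, against 1592 to 4566 CPM in cells, and 4 were called lower and 0 higher, beside 28.9% and 28.6% of all tested miRNAs. With library size only, 1 was called lower. Without Cells replicate 3, 1 was called lower, and without Cells replicate 1, 2 were. miR-146a-5p, which is induced in inflamed cells, was lowest in EVs replicate 2 (303 CPM) and in Cells replicate 2 (1040 CPM). The neuronal list summed to 169818 to 218864 CPM in EVs, against 224805 to 249263 CPM in cells. None of these lists had a member at 0 in all libraries, and their part in the level of miR-128-3p was not tested.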

How the data were processed

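Each library had 1 deposited table of raw counts for 1906 mature miRNA names. Per the submitters' processing notes, the authors used featureCounts 1.4.6-p4, Bowtie 0.12.8, cutadapt 1.7.1 and bcl2fastq 1.8.4 with NCBIM37 (mm9). Not given in the sources used here are the settings, the use of the random adapter bases and the handling of reads with several matches, which bears on miR-128-3p with its 2 genes. Sequences and gene positions come from RefSeq and GENCODE tables of GRCm38, not from the counts' build. RefSeq held all 3 miR-128 arms and 1622 of the 1906 names.

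The labels gave groups and replicate numbers. Chi-square over degrees of freedom was 9.15 to 43.2 between libraries of 1 group, more than sampling noise gives. The two-sided quasi-likelihood test of edgeR 4.0.16 in R 4.3.3 (glmQLFit, glmQLFTest) used TMM, a term for group alone and filterByExpr at a minimum count of 10. Benjamini-Hochberg (BH) adjustment ran over the 336 miRNAs left, and calls needed an adjusted p below 0.05. Such p-values reflect only how far these libraries spread, and that spread may be technical. CPM used total counts unless TMM is named, and likeness used a prior count of 2. SEs were derived from the fold change and the F statistic. Scripts were tested on simulated data.

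Deviations from the group mean correlated weakly between EV and cell libraries of the same number (r = 0.115, 0.106 and 0.256 over 336 miRNAs). Other pairs had r of -0.148 to 0.021. Such deviations cancel within a group, so positive same-number values push the other pairs down. Whether equal numbers mark pairs is not in the labels. The main fit kept group alone, and blocked values are given where they change a call. Alternatives were other scalings, DESeq2 1.42.0, no filter, the block and each library left out. miR-128-3p and all lists were chosen with earlier results of these data known. Named miRNAs were the miR-128 and miR-27 arms, the neighbours of miR-128-3p in rank, the 5 most alike and the most abundant list members. Others were picked once their values were known, as stated with each.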

Additional observations from a re-analysis of the deposited data

How the results depend on the processing

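miR-128-3p kept its direction in each alternative run. Its log2 fold change, EVs over cells, was 1.33 with library size only, 0.91 with the replicate block, 1.00 without a filter, 0.80 with DESeq2 and 0.60 to 1.26 when a library was left out. Its mean CPM was 73208 to 84403 in EVs and 25081 to 35989 in cells without single libraries, and its coefficient of variation 9.54% to 20.1% and 16.7% to 46.7%. It ranked second in EVs without any single library, and first when miR-9-5p was taken out of the table. Both ranks follow from its place behind miR-9-5p alone in each EV library. In cells its rank by mean was 7 to 12. Of its 5 closest miRNAs, 4 were among the closest 5 with a prior count of 0.5, and 5 with TMM scaling.

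With library size only, 148 miRNAs were called higher and 60 lower, in place of 96 and 97. Without single libraries the counts were 66 to 101 and 88 to 98. With library sizes alone, miR-27b-3p was at -0.34 (edgeR BH-adjusted p = 0.158) and 1 myeloid miRNA was called lower. miR-27a-3p was called with median-ratio size factors (-0.86) and DESeq2 (-0.86), with the replicate block (-0.79), and lay at -1.07 to -0.60 without single libraries. With the block, 1 oligodendrocyte miRNA was called higher. Without single libraries, 2 to 5 neuronal miRNAs and 1 to 2 oligodendrocyte miRNAs were called higher and 1 to 4 myeloid miRNAs lower. miR-9-3p, not called, was -0.03 with median-ratio size factors and with DESeq2, and -0.13 to 0.19 without single libraries. The cause of these shifts was not tested. Of the miRNAs given with a test, the block changed the call of miR-27a-3p and miR-219a-5p and of no other. Depth limits the comparison of the opposite arms of miR-128, which could be tested only without the filter.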
